A study of Mus musculus with 14 samples.

Results

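The genes described here were 10 members of the Bcl2 family, which sets whether a cell lives or enters the mitochondrial route of apoptosis. They were listed by name (Bcl2, Bcl2l1, Mcl1, Bcl2a1b, Bcl2a1d, Bcl2l11, Bax, Bak1, Bbc3 and Pmaip1), a rule that reads no measured value, although the list was drawn up with earlier results of these data known, and 10 of 10 were found among the 55487 genes of the count table. RNA was sequenced from 14 libraries, each made from at most 100 mast cells sorted from both ears of mice that were not treated or were treated with MC903. MC903 is calcipotriol, a vitamin D analogue used on mouse skin to produce a dermatitis resembling atopic dermatitis. Resident mast cells of untreated mice gave 5 libraries (1 to 5) and those of MC903-treated mice another 5 (6 to 10). A further 4 libraries (11, 13, 14 and 15), also from MC903-treated mice, are labelled bone marrow mast cells, whereas the protocol speaks of integrin β7-positive mast cells of the ears; they are called bone marrow cells here. The labels name no strain, age, sex, dose, duration or animal, so the p-values measure the spread between these libraries, which may be partly technical.

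Proteins of the Bcl2 family act at the outer membrane of the mitochondrion. Guardians such as BCL-2, BCL-XL, MCL-1 and BCL2A1 hold the pore formers BAX and BAK in check. BH3-only proteins such as BIM, PUMA and NOXA bind the guardians, and when they prevail BAX and BAK open the membrane and caspases are activated. Mast cells are long-lived tissue cells that depend on stem cell factor signalling through KIT, and withdrawal of growth factors is known to raise BIM in them. MCL-1 is a short-lived protein, and NOXA binds it with preference.

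Total counts per library ranged from 13068078 (library 8) to 31781926 (library 13). The most genes with at least 1 count were in libraries 8, 7 and 15 (35246, 34560 and 32814), and the fewest were in library 13 (16025). Kit, Cpa3 and the other mast cell markers, 12 in all, summed to 88180 to 114500 CPM in untreated resident, 108100 to 165000 in MC903 resident and 106900 to 161300 in bone marrow cells, where CPM is the count relative to a library total of 1e6, scaled by normalization factors. Single markers moved with the groups: edgeR called 6 of the 12 in MC903 resident against untreated cells (4 higher, among them Fcer1a at 7.75-fold, and 2 lower, Hdc at 0.508-fold and Ms4a2 at 0.558-fold), 3 in bone marrow against MC903 resident and 7 in bone marrow against untreated cells. Of all genes tested, 2.25%, 2.27% and 6.87% were called in these comparisons. Itgb7, the integrin β7 gene, averaged 287 ± 26.4 CPM in untreated resident, 203 ± 58.3 in MC903 resident and 483 ± 121 in bone marrow cells (mean ± SD, n = 5, 5 and 4). The 8 macrophage and dendritic cell markers summed to 59.2 to 135 CPM in untreated resident and 58.5 to 181 CPM in MC903 resident cells. In bone marrow cells they summed to 83.3 to 11140 CPM, the highest being library 15, with Lyz2 at 4838, Cd74 at 2724, Csf1r at 1105 and C1qa at 790 CPM. Library 14 followed at 392 CPM, with Lyz2 at 257, Cd74 at 45.5 and Csf1r at 10.3 CPM. Of the 7 markers tested, edgeR called Cd68 higher in bone marrow against MC903 resident cells (9.43-fold, adjusted p = 0.0392), without overlap between the groups and also by the DESeq2 Wald test and limma voom, and Cd74 higher against untreated cells (adjusted p = 0.0361), with overlap. C1qa was at 0 in all 5 untreated resident libraries. Adgre1, a macrophage marker, was at 0 to 0.313 CPM in untreated resident and 0.633 to 16.9 CPM in MC903 resident cells. It and Itgax were higher there without overlap, were not called by edgeR (adjusted p = 0.366 and 0.331) and were called by limma voom. Groups did not overlap, with the MC903 resident side higher, for 2.17% of all genes tested. With bone marrow above MC903 resident cells, as for Cd68, the share was 3.97%. Mitochondrial genes took 1.22% to 1.70% of counts in untreated resident, 2.39% to 3.96% in MC903 resident and 2.14% to 4.24% in bone marrow libraries, so this share moved with the treatment, and its part in the results was not tested. Markers of keratinocytes and fibroblasts summed to at most 9.10 and 32 CPM, in MC903 resident libraries 8 and 7. Those of neutrophils summed to at most 85.9 CPM, in bone marrow library 15. Fibroblast markers summed to 2.24 to 32 CPM in MC903 resident and 0 to 5.17 CPM in bone marrow cells. Of these, Dcn was lower in bone marrow cells without overlap, at 0 against 2.35 ± 2.91 CPM (SD, n = 5). Dcn was not called by edgeR (adjusted p = 0.0631) but was called by the DESeq2 Wald test and limma voom. T cell markers summed to 0.0751 to 3.86 CPM in untreated resident, 3.999 to 9.94 in MC903 resident and 0.922 to 29.8 in bone marrow cells, so the resident groups did not overlap. The 5 basophil markers summed to 563 to 846, 545 to 796 and 340 to 1612 CPM in the same order. Of these, Mcpt8 averaged 329 ± 439 CPM (SD, n = 4) in bone marrow against 19.3 ± 22.0 CPM (SD, n = 5) in MC903 resident cells, not called by edgeR (adjusted p = 0.077) but called by the DESeq2 Wald test, and Itga2 was called lower (30.7 against 81.6 CPM, edgeR, adjusted p = 0.00673). The part of other cells in the differences between groups was not tested. Where an edgeR call of a member or pathway gene was lost without library 15, or without libraries 7, 8 and 15 together, this is stated. Such fits are not given for the cell type markers.

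Sequence bears on how 2 of the 10 genes could be counted at all. Bcl2a1b and Bcl2a1d, mouse copies of the guardian gene BCL2A1, have coding sequences of 519 bases that differ at 6 positions and are 98.8% identical, with 217 identical bases in the longest run. Counted from coding base 1 and with the Bcl2a1b base first, the differences are G4T, T48C, A94C, G312A, C381G and T490A. The first 120 coding bases of each (GENCODE M21, GRCm38), with the 3 differing bases in capitals, show how little there is to tell the copies apart:
Bcl2a1b: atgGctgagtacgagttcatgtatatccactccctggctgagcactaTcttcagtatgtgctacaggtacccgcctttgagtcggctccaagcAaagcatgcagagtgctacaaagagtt
Bcl2a1d: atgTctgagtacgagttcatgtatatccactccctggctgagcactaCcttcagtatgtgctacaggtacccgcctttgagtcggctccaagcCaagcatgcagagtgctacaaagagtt
Of all 50-base words in their transcripts, 79.2% for Bcl2a1b and 79.5% for Bcl2a1d also occurred in transcripts of other genes, which were other Bcl2a1 copies and Gm29094. Gm29094, a gene on the same strand with 0 counts in all 14 libraries, overlaps 49.1% of the exonic bases of Bcl2a1b. The share was 0% for Mcl1, Bcl2l1, Bbc3 and Pmaip1, 0.135% for Bcl2l11 and 5.25% for Bcl2. It was 8.51% for Bax, shared with Gm45808 on the same strand, and 17.1% for Bak1, shared with Ggnbp1 on the opposite strand. Gm45808 had 0 counts in all 14 libraries and Ggnbp1 had 0 to 87. D630008O14Rik, antisense to 6.09% of the exonic bases of Bcl2, had 0 to 52. How the counting treated shared reads is not given in the sources used here, so the Bcl2a1b and Bcl2a1d values are uncertain one by one.

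Promoter windows are shown for Mcl1, Bcl2l11 and Bax, which with Pmaip1 were the 4 members called in at least 1 comparison. RefSeq promoter entries (GRCm38.p6) were used for 9 of 10 members, all but Pmaip1. No Pmaip1 window was searched, so nothing is said here of its promoter. The 250 bases before the RefSeq start are printed 5′ to 3′ on the strand of the gene, with motif matches in capitals. Mcl1 lies at chr3:95658471-95658720 (plus strand), Bcl2l11 at chr2:128125788-128126037 (plus strand, the more upstream of its starts) and Bax at chr7:45466899-45467148 (minus strand).
Mcl1: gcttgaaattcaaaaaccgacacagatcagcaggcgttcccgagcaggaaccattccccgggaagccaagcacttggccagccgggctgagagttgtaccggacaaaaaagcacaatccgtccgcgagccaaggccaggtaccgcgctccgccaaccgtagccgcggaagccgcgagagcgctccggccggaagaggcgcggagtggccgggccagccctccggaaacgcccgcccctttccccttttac
Bcl2l11: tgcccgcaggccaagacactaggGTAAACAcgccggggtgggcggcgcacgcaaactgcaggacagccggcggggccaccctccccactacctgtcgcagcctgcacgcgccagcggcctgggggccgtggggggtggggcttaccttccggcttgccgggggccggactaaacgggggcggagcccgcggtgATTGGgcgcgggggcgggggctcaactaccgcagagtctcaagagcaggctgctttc
Bax: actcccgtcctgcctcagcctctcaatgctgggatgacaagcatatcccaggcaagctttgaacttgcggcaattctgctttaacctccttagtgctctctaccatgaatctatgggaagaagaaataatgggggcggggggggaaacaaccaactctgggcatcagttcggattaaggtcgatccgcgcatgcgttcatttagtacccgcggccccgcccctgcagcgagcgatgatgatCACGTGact
The windows were searched on both strands for 8 motifs, with overlapping matches kept. For the CREB family the letters were TGACGTCA, for JUN and FOS proteins the AP-1 letters TGANTCA, and for the stress-response factor ATF4 the letters TGATGNAA. For basic helix-loop-helix factors the E-box letters CACGTG were used, for forkhead factors of the FOXO group GTAAACA, and for STAT factors TTCNNNGAA. The last were the box CCAAT and the NF-kB motif. The Mcl1 window, with a GC content of 64.4%, held no match to these 8 motifs. The Bcl2l11 window, at 72% GC, held the FOXO letters 227 to 221 bases before the start and a CCAAT box on the opposite strand 57 to 53 bases before it. The window of a second Bcl2l11 start, at chr2:128127325-128127574 and not printed, held no FOXO letters. It held CCAAT boxes 106 to 102 and 74 to 70 bases before that start. A window of Bbc3, which was not called, also held the FOXO letters. The Bax window, at 54% GC, held an E-box 9 to 4 bases before the start. Of 32851 promoter windows of the same length, 3.17% held the FOXO letters, 33.8% CCAAT and 6.02% the E-box. A match describes letters in a window and shows no binding.

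Levels were compared between genes only as CPM per kilobase of gene length. The guardian gene Mcl1 was the most abundant of the 10 in all 3 groups, at 351 ± 117 CPM per kilobase in untreated resident, 111 ± 45.0 in MC903 resident and 68.2 ± 20.6 in bone marrow cells (mean ± SD, n = 5, 5 and 4). Bax, the pore former, came next in each group, at 28.2 ± 2.92, 34.2 ± 6.38 and 49.1 ± 5.41 CPM per kilobase (SD, n = 5, 5 and 4). Mcl1 lay above Bax in every library of all 3 groups, and the ranges of the pair overlapped only in bone marrow cells, at 51.8 to 98.0 against 42.3 to 53.8 CPM per kilobase. Below them the order changed between groups. Pmaip1, which encodes NOXA, ranked 3 of 10 among untreated resident cells, 6 among MC903 resident cells and last among bone marrow cells, at 17.0 ± 7.57, 2.52 ± 0.85 and 0.447 ± 0.349 CPM per kilobase (SD, n = 5, 5 and 4). Bcl2l11, which encodes BIM, ranked 8, 9 and 4, at 1.47 ± 0.79, 0.433 ± 0.479 and 4.13 ± 2.05 CPM per kilobase (SD, n = 5, 5 and 4). Apart from Mcl1 over Bax in both resident groups, and Bax over Bcl2l1 in MC903 resident and bone marrow cells, neighbours in the order overlapped in range.

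**Figure D1:**
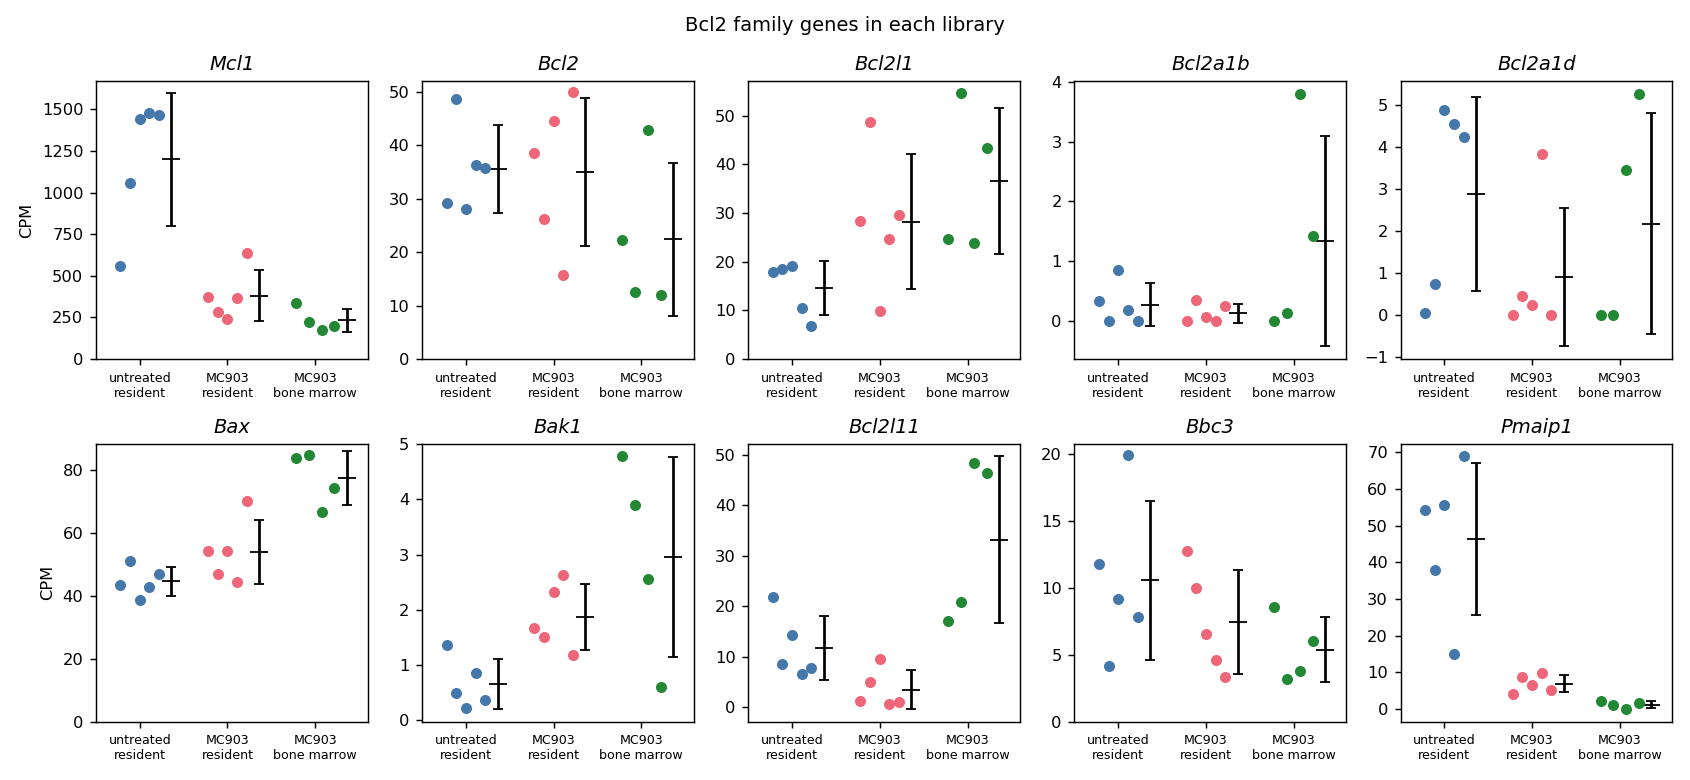
CPM of each of the 10 genes in the 14 libraries; each point is a library, and the bar is the group mean ± SD (n = 5 untreated resident, 5 MC903 resident, 4 bone marrow). All 5 untreated resident libraries lie above all MC903 libraries for Pmaip1, and the 4 bone marrow libraries lie above all MC903 resident libraries for Bcl2l11.

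The comparison of resident mast cells of MC903-treated and untreated mice asked about the treatment at the same labelled cell type. Mcl1 and Pmaip1 were lower in MC903 resident cells, Mcl1 at 0.317 and Pmaip1 at 0.149 of the untreated level. Of the 9 tested members these 2 were called, both lower, against 2.25% of the 21014 genes tested (1.68% lower, 0.571% higher). A gene was called at a Benjamini-Hochberg adjusted p under 0.05 in edgeR's quasi-likelihood test, adjusted over all genes tested. Differences are given as the log2 ratio, the fitted log2 fold change of the first-named group over the second. The other member, Bcl2a1b, did not pass the filter on low counts.

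Mcl1 is ENSMUSG00000038612.16, on the plus strand of GRCm38 chromosome 3 from 95658788 to 95663176. It was at 558, 1059, 1441, 1477 and 1464 CPM in untreated resident libraries 1 to 5. MC903 resident libraries 6 to 10 had 374, 285, 241, 367 and 637 CPM. Library 1 was the lowest of the untreated libraries, and MC903 library 10 lay above it, so the groups overlapped in that pair alone. The means were 1200 ± 399 and 381 ± 154 CPM (SD, n = 5 each), and Mcl1 fell by 1.66 ± 0.279 (SE) on the log2 scale (edgeR, adjusted p = 0.00158). It was called in 10 of 10 fits that each left out 1 library, with adjusted p from 0.000381 to 0.0115.

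Pmaip1 (ENSMUSG00000024521.8), whose protein NOXA binds MCL-1, was at 54.4, 38.0, 55.7, 15.1 and 68.9 CPM in libraries 1 to 5. In MC903 resident libraries 6 to 10 it was at 4.22, 8.69, 6.65, 9.73 and 5.15 CPM. No library of the groups overlapped; the lowest untreated value, in library 4, was above the highest MC903 value, in library 9. Groups did not overlap, with the MC903 resident side lower, for 3.16% of all genes tested (5.33% in either direction). Pmaip1 fell by 2.75 ± 0.667 (SE) on the log2 scale (edgeR, adjusted p = 0.0282). The call was close to the threshold: it held in 1 of 10 fits that each left out 1 library, the one without library 4 (0.0325), and adjusted p reached 0.109 without library 6. Without libraries 7, 8 and 15 it was 0.171, with a log2 ratio of -2.86.

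Bcl2l11 was at 21.8, 8.57, 14.3, 6.60 and 7.73 CPM in libraries 1 to 5 and at 1.20, 4.93, 9.62, 0.633 and 1.01 CPM in libraries 6 to 10. The 2 highest MC903 resident libraries, 8 and 7, are the 2 with the most genes detected and the lowest total counts, and library 8 lay within the untreated range. The log2 ratio was -1.77 ± 0.67 (SE), which was not called (edgeR, adjusted p = 0.215). Without libraries 7, 8 and 15 it was -3.63 and was called (adjusted p = 0.0162). The part of depth, of the number of detected genes and of other cells in this difference was not tested.

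Among the remaining guardians, Bcl2 (ENSMUSG00000057329.7, chromosome 1, 106538178 to 106714274, minus strand) had a log2 ratio of -0.02 ± 0.382 (SE) and was not called (edgeR, adjusted p = 0.994); its sign turned with the scaling, to 0.13 with DESeq2 size factors. Bcl2l1, which encodes BCL-XL (ENSMUSG00000007659.18, chromosome 2, 152780668 to 152831728, minus strand), averaged 14.6 ± 5.53 CPM in untreated and 28.2 ± 13.9 CPM in MC903 resident cells (SD, n = 5 each), with a log2 ratio of 0.95 ± 0.417 (SE, adjusted p = 0.319). Only library 8, at 9.88 CPM, lay within the untreated range. Of the pore formers, Bax differed by 0.28 ± 0.211 (SE, adjusted p = 0.692) and the rare Bak1 (ENSMUSG00000057789.14, chromosome 17, 27019810 to 27029009, minus strand) by 1.49 ± 1.15 (SE, adjusted p = 0.696). Bbc3, which encodes PUMA (ENSMUSG00000002083.13, chromosome 7, 16308393 to 16318205, plus strand), averaged 10.6 ± 5.91 and 7.44 ± 3.88 CPM (SD, n = 5 each), with a log2 ratio of -0.50 ± 0.641 (SE, adjusted p = 0.861). For Bcl2l1, Bak1 and Bbc3 a 2-fold difference lay within 2 standard errors of the estimate.

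**Figure D2:**
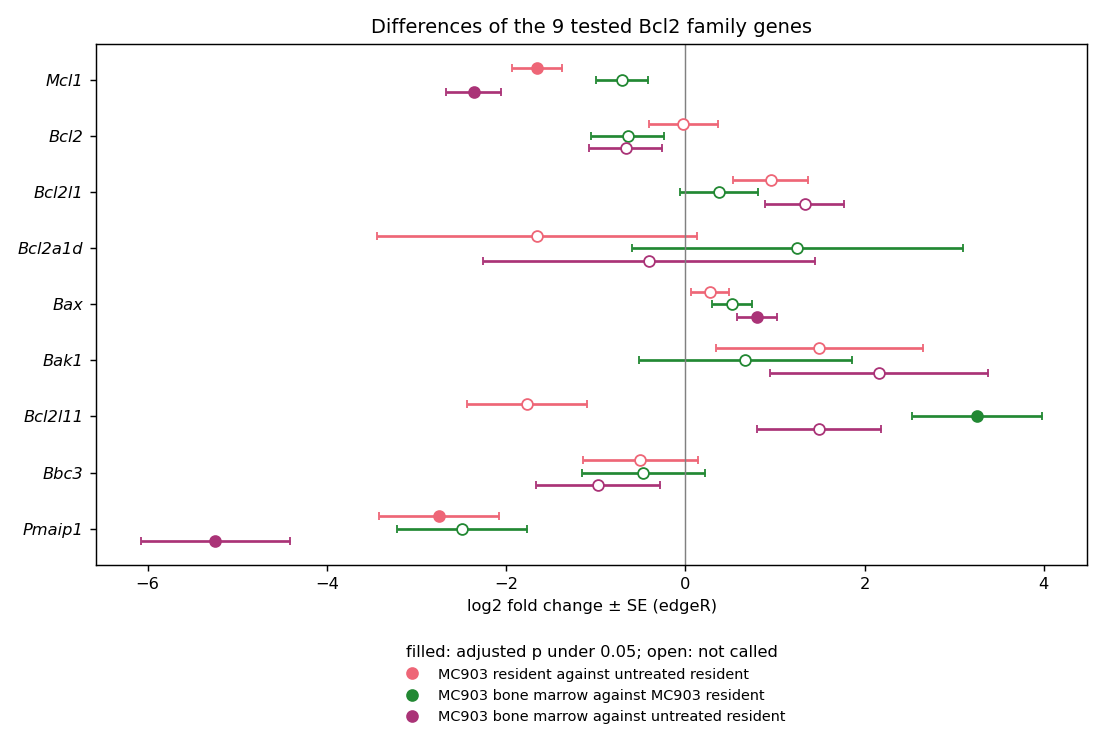
Log2 fold change ± SE (edgeR) of the 9 tested members in the 3 comparisons, on the horizontal axis, with filled points for adjusted p under 0.05. Mcl1 and Pmaip1 are filled on the lower side in both comparisons with untreated resident cells, and Bcl2l11 is filled on the higher side only for bone marrow against MC903 resident cells, at 3.26.

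The comparison of bone marrow with MC903 resident cells asked about the labelled cell type at the same treatment. Bcl2l11 was the member called, 9.56-fold higher in bone marrow cells. Of the 9 tested members 1 was called, against 2.27% of all genes tested (1.32% higher, 0.952% lower), and 0 were called lower by edgeR (2 at an unadjusted p under 0.05, and 1, Pmaip1, by the DESeq2 Wald test). Over all genes, 3710 of 21014 had an unadjusted p under 0.05 in either direction, and the Wald test called 1275 of 20766 lower. The median log2 ratio of the 9 was 0.38, against -0.28 for all genes tested. Bcl2l11 and Pmaip1 were the 2 members whose groups did not overlap, one higher and the other lower in bone marrow cells, against 3.97% of all genes tested on the higher and 4.32% on the lower side (8.29% in all). This comparison shares its MC903 resident libraries with the one above.

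Bcl2l11 is ENSMUSG00000027381.16, on the plus strand of GRCm38 chromosome 2 from 128126038 to 128162547. It was at 17.1, 20.9, 48.3 and 46.4 CPM in bone marrow libraries 11, 13, 14 and 15, against 1.20, 4.93, 9.62, 0.633 and 1.01 CPM in MC903 resident libraries 6 to 10. All 4 bone marrow libraries were above all 5 MC903 resident libraries, and within the bone marrow group libraries 14 and 15 lay above libraries 11 and 13. The means were 33.2 ± 16.5 and 3.48 ± 3.85 CPM (SD, n = 4 and 5), with a log2 ratio of 3.26 ± 0.726 (SE), called by edgeR at an adjusted p of 0.0184. The macrophage and dendritic cell markers summed to 176, 83.3, 392 and 11140 CPM in libraries 11, 13, 14 and 15, so they too were higher in libraries 14 and 15, and their part in the result was not tested. Without library 14 the log2 ratio was 3.02 (adjusted p = 0.043), without library 15 it was 3.06 (adjusted p = 0.0288), and without libraries 7, 8 and 15 it was 4.90 (adjusted p = 0.00324). Library 11, with the highest sum of basophil markers, had the lowest Bcl2l11 of the 4, and without it the log2 ratio was 3.44 (adjusted p = 0.0151). The call was lost without library 6 (0.0805), library 7 (0.0509) or library 9 (0.0564), and in a fit of these 2 groups alone (0.0759).

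Pmaip1 was at 2.26, 1.04, 0 and 1.57 CPM in bone marrow libraries 11, 13, 14 and 15, where the 0 of library 14 allows up to 0.128 CPM (3 counts, counting error only). All 4 lay below the lowest MC903 resident library. The log2 ratio was -2.49 ± 0.729 (SE), which was not called (edgeR, adjusted p = 0.0825), although it was without the filter on low counts (0.00207), with the DESeq2 Wald test (0.00258) and without library 14 (0.0479). Mcl1 was at 335, 222, 177 and 198 CPM in bone marrow libraries 11, 13, 14 and 15, which overlapped the MC903 resident range, and its log2 ratio of -0.71 ± 0.292 (SE) was not called by edgeR (adjusted p = 0.209). Without the filter on low counts the adjusted p was 0.036.

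The other members were not called between bone marrow and MC903 resident cells by edgeR. Bcl2 averaged 22.4 ± 14.4 against 35.0 ± 13.9 CPM (SD, n = 4 and 5), with a log2 ratio of -0.65 ± 0.41 (SE, adjusted p = 0.431). Bcl2l1 differed by 0.38 ± 0.436 (SE, adjusted p = 0.705), Bax by 0.52 ± 0.223 (SE, adjusted p = 0.227) and Bak1 by 0.67 ± 1.19 (SE, adjusted p = 0.822). Bbc3 differed by -0.47 ± 0.684 (SE, adjusted p = 0.777).

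The comparison of bone marrow with untreated resident cells spans treatment and labelled cell type together, which cannot be told apart in it. Mcl1 and Pmaip1 were lower in bone marrow cells, at 0.194 and 0.0264 of the untreated level, and Bax was 1.74-fold higher. Of the 9 tested members 3 were called, against 6.87% of all genes tested (3.49% higher, 3.37% lower). The median log2 ratio of the 9 was -0.41, against -0.14 for all genes tested. Together with Bcl2l1 they made 4 members whose groups did not overlap, 2 higher and 2 lower, against 5.13% of all genes tested on the higher and 5.28% on the lower side (10.4% in all). This comparison shares the untreated libraries with the first comparison and the bone marrow libraries with the second.

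Mcl1 fell by 2.36 ± 0.311 (SE) on the log2 scale (edgeR, adjusted p = 4.7e-05), to 233 ± 70.4 CPM (SD, n = 4). Pmaip1 fell by 5.24 ± 0.83 (SE) on the log2 scale (edgeR, adjusted p = 0.000315), the means being 46.4 ± 20.7 and 1.22 ± 0.954 CPM (SD, n = 5 and 4). Both were called in 9 of 9 fits that each left out 1 library. For both genes every bone marrow library was below every untreated library, the nearest pair for Mcl1 being libraries 11 and 1.

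Bax is ENSMUSG00000003873.11, on the minus strand of GRCm38 chromosome 7 from 45461697 to 45466898. It was at 43.3, 51.0, 38.7, 42.8 and 46.7 CPM in untreated resident libraries 1 to 5, at 54.3, 46.8, 54.1, 44.3 and 70.0 CPM in MC903 resident libraries 6 to 10, and at 83.6, 84.7, 66.6 and 74.3 CPM in bone marrow libraries 11, 13, 14 and 15. The bone marrow libraries all lay above the untreated ones, and MC903 resident libraries lay between and overlapped both. Bax rose by 0.80 ± 0.223 (SE) on the log2 scale (edgeR, adjusted p = 0.0322). The call held in 2 of 9 fits that each left out 1 library, without library 2 (0.0381) or library 5 (0.0295), and the highest adjusted p was 0.118, without library 13. The call was thus also lost without library 15, which had the highest sum of macrophage and dendritic cell markers. It was lost without the filter on low counts (0.201) and without libraries 7, 8 and 15 (0.0503), while the log2 ratio stayed between 0.74 and 0.86 in the fits that each left out 1 library.

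Bcl2l1 was at 24.7, 54.7, 23.8 and 43.3 CPM in bone marrow libraries 11, 13, 14 and 15 and at 18.0, 18.5, 19.0, 10.5 and 6.88 CPM in untreated libraries 1 to 5. All 4 bone marrow libraries were above all 5 untreated libraries. The log2 ratio of 1.33 ± 0.438 (SE) was not called by edgeR (adjusted p = 0.0752) and was called by the DESeq2 Wald test (adjusted p = 0.0269). Bcl2l11 was not called against untreated cells, at 1.49 ± 0.688 (SE, adjusted p = 0.213), and untreated library 1 (21.8 CPM) lay within the bone marrow range. Bcl2 (-0.67 ± 0.41, SE, adjusted p = 0.38), Bak1 (2.16 ± 1.22, SE, adjusted p = 0.329) and Bbc3 (-0.97 ± 0.693, SE, adjusted p = 0.47) were not called.

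The levels of 4 death-promoting genes were set against Mcl1 as a ratio per gene length within each library, as a description with no test. Bcl2l11 was at 0.19% to 1.67% of Mcl1 (median 0.345%) in untreated resident, 0.0677% to 1.7% (median 0.137%) in MC903 resident and 2.17% to 11.6% (median 6.98%) in bone marrow cells. Bax was at 5.83% to 16.8% of Mcl1 (median 6.92%), 23.8% to 48.6% (median 31.5%) and 54.1% to 82.6% (median 81.4%) in the same groups. Pmaip1 was at 1.28% to 12.2% of Mcl1 in untreated resident, 1.01% to 3.82% in MC903 resident and 0% to 0.992% in bone marrow cells. Bbc3 was at 0.63% to 3.4% (median 1.02%), 0.842% to 5.64% (median 4.35%) and 2.29% to 4.86% (median 3.78%) of Mcl1, and its groups overlapped throughout. Mcl1, the denominator of all these ratios, was itself lower in both MC903 groups than in untreated cells. RNA ratios say nothing of the protein ratio, since MCL-1 and BIM are both controlled after transcription.

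**Figure D3:**
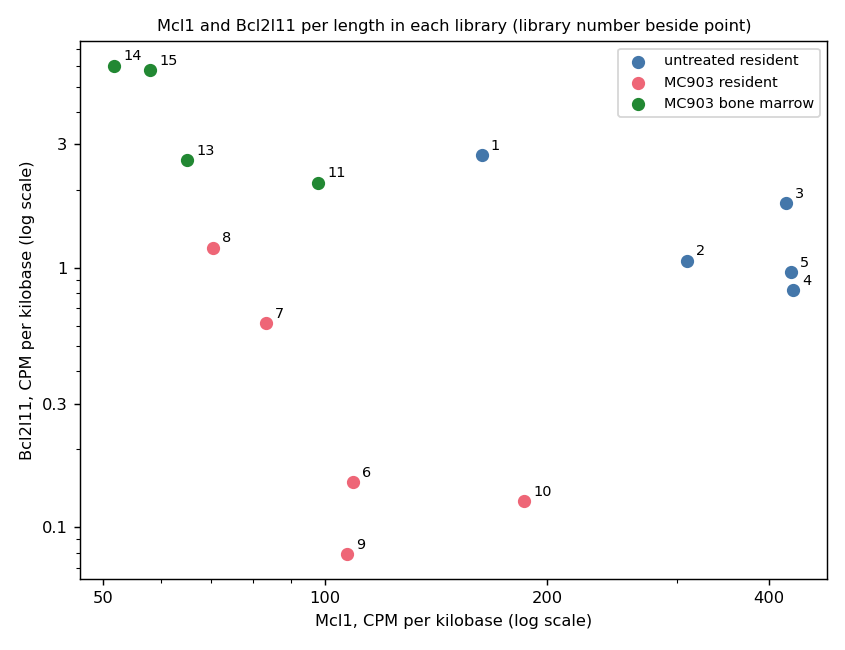
Mcl1 (horizontal) against Bcl2l11 (vertical), both in CPM per kilobase on log axes; each point is a library with its number beside it. The 4 bone marrow libraries lie at the upper left, the 5 MC903 resident libraries below them, and the 5 untreated resident libraries at the right, with Mcl1 at 163 CPM per kilobase or more; MC903 resident library 10, at 186, lies to the right of untreated library 1.

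The Bcl2a1 copies were rare. Bcl2a1b (ENSMUSG00000089929.1, 89199209 to 89207827, plus strand) and Bcl2a1d (ENSMUSG00000099974.1, 88723285 to 88731914, minus strand) both lie on GRCm38 chromosome 9. Bcl2a1b was at 0 to 0.864 CPM in untreated resident, 0 to 0.348 CPM in MC903 resident and 0 to 3.80 CPM in bone marrow cells, and Bcl2a1d at 0.0567 to 4.88, 0 to 3.84 and 0 to 5.28 CPM. Bcl2a1d was split within each group. It was at 4.25 to 4.88 CPM in libraries 3, 4 and 5 and at most 0.738 CPM in libraries 1 and 2, and in bone marrow cells it was at 3.46 and 5.28 CPM in libraries 14 and 15 and at 0 in libraries 11 and 13. The Bcl2a1 copies added up to 0 to 180 counts per library, and their sum was not called in any comparison. The log2 ratios of the sum were -1.63 ± 1.51 (SE, edgeR, adjusted p = 0.768) for MC903 resident against untreated, 1.72 ± 1.58 (SE, adjusted p = 0.612) for bone marrow against MC903 resident and 0.09 ± 1.56 (SE, adjusted p = 0.987) for bone marrow against untreated cells. Libraries 14 and 15 also had the highest T cell and macrophage markers of the bone marrow group, respectively, and the part of other cells in these values was not tested. In such pools fewer expressing cells and less RNA per cell cannot be told apart.

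Genes of the surrounding pathway were taken from lists of known components. Their counts are read against all genes tested, in the order of the 3 comparisons above. In this order edgeR called 2.25%, 2.27% and 6.87% of 21014 genes, and 2654, 3710 and 4472 had an unadjusted p under 0.05. The DESeq2 Wald test called 1072, 1720 and 2757 of 20766 genes, and limma voom 1357, 2073 and 2212 of 21014. Of 14 other Bcl2 family genes 8 were tested and 0 were called in any comparison by edgeR, the DESeq2 Wald test or limma voom, with 2, 0 and 1 at an unadjusted edgeR p under 0.05 in the 3 comparisons. Among them were the BH3-only genes Bid, at 47.4 to 163 CPM over all libraries, and Bad, at 29.1 to 84.6 CPM. Of 13 genes of the apoptosome and the caspases 0 were called in any comparison by edgeR, with 1, 4 and 1 at an unadjusted p under 0.05. The DESeq2 Wald test called 1 of them, Casp8, higher in bone marrow against untreated cells, and limma voom called 0. Of 8 genes for inhibitors of apoptosis, Birc3, which encodes cIAP2, fell by 1.31 ± 0.303 (SE) on the log2 scale in MC903 resident against untreated cells (edgeR, adjusted p = 0.02, held in 4 of 10 fits that each left out 1 library). Of 9 tested genes of the death receptor pathway, Ripk1, which encodes the kinase RIPK1, fell by 1.03 ± 0.238 (SE) on the log2 scale in the same comparison (adjusted p = 0.0204, held in 5 of 10), where 2.25% of all genes tested were called. In bone marrow against untreated cells edgeR called 0 of the 9, with 3 higher and 2 lower at an unadjusted p under 0.05; the DESeq2 Wald test called Tradd higher and Cflar lower, and limma voom called Tnfsf10 higher. Between bone marrow and MC903 resident cells 1 of the 9 had an unadjusted p under 0.05, and 0 were called by edgeR, the DESeq2 Wald test or limma voom. Ripk1 was not called after scaling by DESeq2 size factors (0.0548) or by TMM from abundant genes (0.076), nor without the filter on low counts (0.0672).

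Of 18 genes for regulators known to act on the family or on its proteins, 6 were called between MC903 resident and untreated cells, all lower, against 2.25% of all genes tested (1.68% lower). Atf4, the stress-response factor, fell by 1.30 ± 0.17 (SE) on the log2 scale (edgeR, adjusted p = 0.000135), from 756 ± 114 to 307 ± 46.8 CPM (SD, n = 5 each). The NF-kB subunit genes Rela, Rel and Nfkb1 fell by 1.23, 1.30 and 1.04 (adjusted p = 0.000425, 0.00715 and 0.00227). Trp53, whose protein p53 is known to activate Bax, Bbc3 and Pmaip1, fell from 91.3 ± 25.6 to 45.6 ± 11.9 CPM (SD, n = 5 each, adjusted p = 0.0412), a call held in 2 of 10 fits that each left out 1 library and lost with DESeq2 size factors (0.0767) and with TMM from abundant genes (0.0979). Mdm2, the ubiquitin ligase of p53, fell by 1.52 (adjusted p = 0.00436). The DESeq2 Wald test called 7 of the 18 lower, these 6 with Jun, and limma voom called 8, these 6 with Jun and Akt2. Both tools called more genes than edgeR over all genes, 472 of 20766 and 697 of 21014 being lower. The median log2 ratio of the 18 was -0.73, against 0.24 for all genes tested and -0.50 for the 9 tested Bcl2 family members.

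In bone marrow against untreated resident cells 4 of the 18 regulators were called, all lower, against 6.87% of all genes tested (3.37% lower): Atf4 (-1.65), Rel (-1.54), Jun (-1.31) and Rela (-1.20), with edgeR adjusted p of 8.79e-06, 0.00152, 0.00388 and 0.000324. The Jun call was lost without the filter on low counts (0.0567). The DESeq2 Wald test called 7 of the 18 lower, these 4 with Ddit3, Mitf and Nfkb1, and limma voom called 5, these 4 with Nfkb1. Over all genes the 2 tools called 1470 of 20766 and 1124 of 21014 lower. Between bone marrow and MC903 resident cells 0 of the 18 were called by edgeR, 4 had an unadjusted p under 0.05, and the DESeq2 Wald test (Mapk8) and limma voom (Nfkb1) each called 1. There 3710 of all 21014 genes had an unadjusted p under 0.05, and these tools called 1720 of 20766 and 2073 of 21014. Foxo3, whose protein is known to activate Bcl2l11, differed by -0.01 ± 0.424 (SE, edgeR, adjusted p = 0.997) in that comparison. Foxo1 differed there by 0.54 ± 0.764 (SE, adjusted p = 0.77) and Foxo4 by 0.004 ± 1.10 (SE, adjusted p = 0.999). Against untreated cells Foxo3 was at -0.81 in MC903 resident and -0.82 in bone marrow cells (edgeR, adjusted p = 0.42 and 0.289). The part of these factors in the Bcl2l11 difference was not tested. Of 8 genes acting on MCL-1 or BIM protein, 2 were called, both lower in MC903 resident against untreated cells, where 2.25% of all genes tested were called (1.68% lower). In the other comparisons edgeR called 0 of the 8. At an unadjusted p under 0.05 there were 2 in bone marrow against MC903 resident and 3 against untreated cells. Of all 21014 genes, 3710 and 4472 were under it there. Limma voom called Ywhaz higher in the former comparison, and it and the DESeq2 Wald test called Dynll1 lower in the latter. Ywhaz, which encodes a 14-3-3 protein, fell by 0.83 ± 0.169 (SE, adjusted p = 0.00723) on the log2 scale, and Dynll1, which encodes the dynein light chain that tethers BIM, by 0.71 ± 0.18 (SE, adjusted p = 0.0376, called in 2 of 10 fits that each left out 1 library). Dynll1 was not called after scaling by DESeq2 size factors (0.0797) or by TMM from abundant genes (0.116). Without libraries 7, 8 and 15, Mdm2 (0.083), Rel (0.0737), Ywhaz (0.064), Birc3 (0.185), Ripk1 (0.0531), Trp53 (0.0911) and Dynll1 (0.184) missed the threshold for MC903 resident against untreated cells, with the same sign.

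**Figure D4:**
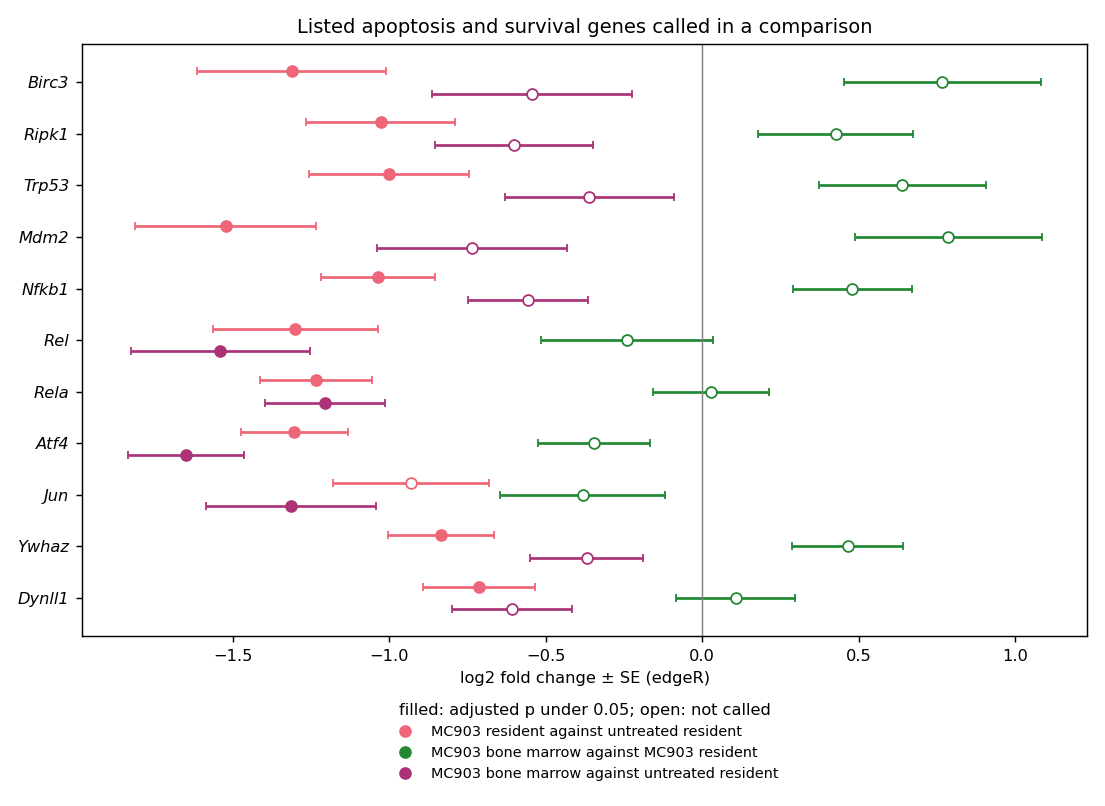
Log2 fold change ± SE (edgeR) of the 11 pathway genes called in at least 1 comparison, with filled points for adjusted p under 0.05. In MC903 resident against untreated resident cells 10 of the 11 are filled, and in bone marrow against untreated resident cells 4 are filled, all on the lower side.

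For the 4 called members, the 7962 protein-coding genes averaging 10 CPM or more were searched for the most similar pattern over the 14 libraries, measured as the root mean square difference of centred log2 CPM. Siah2 (0.421) and Ube2q2 (0.424) lay nearest to Mcl1, whose own spread was 1.08. Siah2 was at 317, 110 and 50.5 CPM on average in untreated resident, MC903 resident and bone marrow cells. Rex1bd (0.123) and Sars (0.189) lay nearest to Bax, whose own spread was 0.364. For Bcl2l11 and Pmaip1, with spreads of 1.83 and 2.53, the nearest were Setdb1 (0.969) and Drosha (1.0) for Bcl2l11, and Mlf1 (1.10) and Pcdh7 (1.16) for Pmaip1.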

How the data were processed

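The values deposited by the authors were raw read counts per gene in 14 libraries, with gene length in bases per the file headers. Per the labels' protocols, complementary DNA was made with SMART-Seq HT and libraries with Nextera XT. STAR, featureCounts and the build mm10 are named per the submitters' processing notes, and the strand and shared-read settings are not given in the sources used here. Of 55487 gene identifiers, 55094 occurred with version in GENCODE M21, all with the same coordinates, and 55394 had a symbol. The count columns used were 14 and those not used were 0.

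Groups came from the labels. Genes were filtered with filterByExpr (minimum count 10, minimum total 15), which left 21014, and 1 model of the 3 groups, with no covariate, was fitted in edgeR 4.0.16 (TMM, glmQLFit robust, glmQLFTest) under R 4.3.3, using all libraries. P-values were adjusted by Benjamini-Hochberg over all genes tested and called under 0.05. The standard error is the size of the log2 ratio divided by the square root of F. The biological coefficient of variation was 1.16. Reads carry no molecular identifiers, so limits from counts cover counting error only. The fit was tested on simulated data. Alternatives were DESeq2 1.42.0 (size factors, Wald test), limma 3.58.1 (voomWithQualityWeights), TMM from genes averaging 10 CPM or more, no filter, the 2 groups alone, leaving out each library in turn, leaving out libraries 7, 8 and 15, and the Bcl2a1 counts summed.

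The rule for the members reads no measured value, but the members, lists and libraries left out were chosen with earlier results of these data known. Named were all members, called genes of the pathway lists averaging 10 CPM or more in a group or needed for a count of 5 or fewer, and the 2 nearest genes in pattern to each called member. Cell type markers did not follow this rule: some called ones are not named, and some that were not called are named. Foxo1, Foxo3, Foxo4, Bid and Bad were named after their values were seen. Some listed genes are not reported here.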

Additional observations from a re-analysis of the deposited data

Results flagged for a closer look

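Bcl2a1d stood at 3.84 CPM in MC903 resident library 9, against 0 to 0.464 CPM in the other 4 libraries of that group. The gap was 0.879 of the group's range, above the Dixon 95% critical value of 0.71. It was the 1 such value among 30 groups of a member, and chance gives about 1 in 20.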

How the results depend on the processing

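Genes called numbered 473 for MC903 resident against untreated cells, 477 for bone marrow against MC903 resident and 1443 for bone marrow against untreated cells. The DESeq2 Wald test gave 1072, 1720 and 2757, and limma voom 1357, 2073 and 2212. The split into higher and lower was 600 and 472, 445 and 1275, and 1287 and 1470 with the Wald test. With limma voom it was 660 and 697, 679 and 1394, and 1088 and 1124. For the first comparison, leaving out libraries 7, 8 and 15 gave 253. For the second, no filter gave 748 and a fit of the 2 groups alone 315. Leaving out 1 library at a time gave 312 to 516, 302 to 704 and 1140 to 1549. The 704 and 1549 were without library 15, with 328 higher and 376 lower, and 718 higher and 831 lower. With all libraries the split was 277 higher and 200 lower, and 734 higher and 709 lower. Without libraries 7, 8 and 15 it was 126 and 213, and 643 and 762, of 339 and 1405 called. Scaling moved the split: 120 higher and 353 lower became 207 and 294 with DESeq2 size factors and 250 and 265 with TMM from abundant genes, and 277 and 200 became 167 and 242, and 177 and 268. The median log2 ratio of all genes moved from 0.24 to 0.40 and 0.46, and from -0.28 to -0.43 and -0.44.

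Members called numbered 2, 1 and 3, and 1 to 2, 0 to 2 and 2 to 3 with 1 library left out. For the second comparison there were 3 without the filter, 2 with the Wald test and 0 with the 2 groups alone. Without libraries 7, 8 and 15 the 2 members of the first comparison were Mcl1 and Bcl2l11. Mcl1 (both comparisons with untreated cells) and Pmaip1 (bone marrow against untreated) were called under all alternatives run.

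The Bcl2 log2 ratio for MC903 resident against untreated cells turned to 0.13 with DESeq2 size factors and the Wald test, 0.19 with TMM from abundant genes and 0.013 with the 2 groups alone, and ran from -0.18 to 0.27 with 1 library left out. Bcl2a1d for bone marrow against MC903 resident cells turned to -0.090 with limma voom and -0.18 without libraries 7, 8 and 15. The cause was not tested. No paired analysis was possible because the libraries carry a running number that no groups share and the labels name no animal.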
